A study of Mus musculus with 2 samples.

Results

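Signaling in the vomeronasal organ (VNO), the paired chemosensory tube at the base of the nasal septum, runs through heterotrimeric G proteins, and 8 genes for their subunits were followed here across the cells of the adult mouse VNO. They were taken by their symbols from the 32285 genes counted, and are the alpha subunit genes *Gnai2* and *Gnao1*, the beta subunit gene *Gnb1*, and the gamma subunit genes *Gng2*, *Gng3*, *Gng8*, *Gng12* and *Gng13*. The cells came from whole VNO of wild-type C57BL/6J males at postnatal day 60, with 5 mice in all. There was 1 condition, no treatment and no sort, and the dissociated cells were frozen before they were captured. They were captured as 2 droplet-based single-cell libraries, in which every captured mRNA molecule bears its own tag, a unique molecular identifier (UMI). No source used here says how the 5 mice were divided between the libraries, so their spread may be technical and need not cover differences between mice.

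A G protein is a trimer of an alpha, a beta and a gamma subunit that is opened by an activated receptor, after which the alpha subunit and the beta-gamma pair each act on effectors. Vomeronasal sensory neurons (VSNs) are of an apical and a basal type, which share a pool of progenitors. Apical VSNs carry receptors of the V1R family and are known for the alpha subunit Gαi2, encoded by *Gnai2*. Basal VSNs carry receptors of the V2R family and are known for Gαo, encoded by *Gnao1*. In both types, phospholipase C acts downstream of the G protein and the channel Trpc2 carries the current. The beta-gamma pair is the part of the trimer that can activate phospholipase C beta.

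*Gng8* and *Gnb1* rose with maturation in both types, whereas *Gng13* and *Gng2* differed most between the types among the gamma genes tested in mature VSNs, and the upstream bases of these 4 are shown before their values. They come from the RefSeq promoter table on GRCm38.p6, which held 9 entries for 7 of the 8 genes. Stretches that overlap an annotated exon by more than 1 base, those of *Gnao1*, *Gng3* and *Gng12*, are not printed, nor is the second *Gng13* entry. Each stretch is the 250 bases before a RefSeq start of the gene, on the strand of the gene and 5′ to 3′. The windows are chr4:155491111-155491360 (+) for *Gnb1*, chr7:16891536-16891785 (+) for *Gng8*, chr17:25716922-25717171 (+) for *Gng13* and chr14:19976694-19976943 (−) for *Gng2*. Capitals mark a match to a motif of a factor family of the VSN lineage.
Gnb1: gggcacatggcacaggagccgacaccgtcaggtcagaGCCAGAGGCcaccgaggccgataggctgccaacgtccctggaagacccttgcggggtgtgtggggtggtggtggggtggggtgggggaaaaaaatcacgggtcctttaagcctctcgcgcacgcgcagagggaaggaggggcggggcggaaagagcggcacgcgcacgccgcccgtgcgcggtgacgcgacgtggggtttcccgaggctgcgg
Gng8: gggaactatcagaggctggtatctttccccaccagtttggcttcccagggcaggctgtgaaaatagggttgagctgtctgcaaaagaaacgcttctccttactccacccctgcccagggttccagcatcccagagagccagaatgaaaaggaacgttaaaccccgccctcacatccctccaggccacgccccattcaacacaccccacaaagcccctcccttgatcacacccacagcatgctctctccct
Gng13: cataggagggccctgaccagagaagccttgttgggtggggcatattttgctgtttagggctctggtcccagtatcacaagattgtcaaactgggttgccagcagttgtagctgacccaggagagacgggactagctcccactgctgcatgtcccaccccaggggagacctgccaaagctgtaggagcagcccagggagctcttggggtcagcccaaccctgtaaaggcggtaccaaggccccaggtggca
Gng2: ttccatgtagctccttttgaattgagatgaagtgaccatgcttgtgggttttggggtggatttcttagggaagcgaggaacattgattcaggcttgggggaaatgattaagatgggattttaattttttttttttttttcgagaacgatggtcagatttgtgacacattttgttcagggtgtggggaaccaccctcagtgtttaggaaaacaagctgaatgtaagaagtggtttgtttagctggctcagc

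Both strands were searched for 3 motifs, TCCC and GGGA with any 2 bases between them for the Ebf factors, GCCNNNGGC of the AP-2 factors, to which the basal factor Tfap2e belongs, and TGACAG of the Meis factors, to which the apical factor Meis2 belongs. The *Gnb1* stretch held 1 AP-2 match and no other, and the stretches of *Gng8*, *Gng13* and *Gng2* held none of the 3. Of the entries not printed, that of *Gng3* held 1 AP-2 and 1 Meis match, 1 of the *Gng12* entries held 1 AP-2 match, and those of *Gnao1* and the second *Gng13* entry held none. The *Gng2* stretch lies before the RefSeq start but within the span that GENCODE gives the gene, in none of its exons. Of the 32851 promoters in the table, 13.7% held the AP-2 letters in their 250 upstream bases, 15.9% the Meis letters and 0.779% the Ebf letters. A match is only a run of letters, and its absence from this window says nothing of the factor. The stretches differed in base composition, with 69.2% G and C for *Gnb1*, 58.8% for *Gng13*, 56% for *Gng8* and 41.2% for *Gng2*.

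In the GENCODE annotation of GRCm38 the 8 genes lie on 8 chromosomes and are all protein-coding. *Gnai2* spans chr9:107614125-107635367 (−) and *Gnao1* chr8:93809966-93969388 (+). *Gnb1* spans chr4:155491361-155559269 (+). The gamma genes are *Gng2* at chr14:19872559-19977627 (−), *Gng3* at chr19:8836933-8839194 (−), *Gng8* at chr7:16891786-16895436 (+), *Gng12* at chr6:66896397-67021350 (+) and *Gng13* at chr17:25717171-25719406 (+). *Gnai2* overlaps Gm19721 and *Gng12* overlaps Gm15644 on the same strand, so the gene of a read from the shared stretch is uncertain. *Gng3* overlaps *Bscl2* and *Gng13* overlaps *Chtf18* on the other strand.

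After the quality filter 10592 of 24084 barcodes remained, with a median of 6668 UMIs per cell in library 1 and 6650.5 in library 2. The cells fell into 32 clusters, of which 6 with 1771 cells met no fixed marker rule and stayed unnamed. Each class name used here means cells like that type by those markers, and the 33 G protein genes took no part in the clustering or the naming. The lineage held 42 progenitors, 36 cycling precursors, 80 precursors, 69 apical-side and 61 basal-side precursors, 191 immature apical, 156 immature basal, 594 mature apical and 108 mature basal VSNs. A further 163 cells of the lineage clusters were left out, in 3 subclusters, of which 1 was led by genes of dividing cells and non-neuronal epithelium, 1 by genes of dendritic cells and 1 had a low UMI count. The 2 libraries shared 3 barcode sequences among the kept cells. Levels are in CPM, in which each class total is scaled to 1000000 UMIs, and library 1 is given before library 2. Summed V1R receptor genes were at 12706 and 13753 CPM in mature apical VSNs of the 2 libraries, and summed V2R genes were at 11477 and 8727 in mature basal VSNs. A UMI counts 1 molecule whatever the transcript length, so levels of different genes on this scale compare numbers of captured molecules.

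*Gnai2* was highest in mature apical VSNs of all 23 named classes, and mature basal VSNs stood at the low end, where they overlapped gland cells (99.6 and 86.2 CPM). Its level was 3614 and 3785 CPM in mature apical VSNs, against 108 and 41.6 in mature basal VSNs. In immature apical VSNs it was at 1217 and 1476, and in immature basal VSNs at 166 and 168. The libraries of one type did not overlap those of the other at either age. Of these VSN classes only mature basal VSNs had a wide spread between libraries, and cycling precursors, at 220 and 552, had one as well. Before the types parted the gene was already present, at 392 and 387 in precursors. In apical-side precursors, which carry Meis2, it was at 788 and 750, above the 376 and 375 of basal-side precursors. Along the apical arm each stage lay above the one before in both libraries, and along the basal arm each stage lay below it. Immature apical VSNs held subclusters labeled by low, middle and high V1R content. Immature basal VSNs held subclusters of low and high V2R content. All were drawn by clustering, and no cell was graded by its own receptor UMIs. *Gnai2* was at 881 and 939 in the low, 1241 and 1461 in the middle and 1542 and 1922 in the high V1R subcluster. It thus rose from subcluster to subcluster within the immature class. Mature apical VSNs held more *Gnai2* than mature basal VSNs by 5.52 ± 0.34 on the log2 scale (SE, n = 2 libraries a class, adjusted p = 9.81e-05), a fold of 46.0. Without library 1 this log2 difference was 6.39. For immature VSNs the difference was 2.96 ± 0.14 (adjusted p = 8.10e-10). All adjusted p values are from edgeR's quasi-likelihood test on UMIs summed per library and class, with Benjamini-Hochberg adjustment over all genes tested.

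*Gnao1* took the opposite course from class to class, falling along the apical arm while basal VSNs kept it. It was at 399 and 551 CPM in immature basal VSNs, 340 and 355 in mature basal VSNs and 398 and 287 in precursors. The ranges of mature basal VSNs and precursors overlapped, so their order is not beyond the spread. In the apical arm it was at 142 and 228 in apical-side precursors, 72.8 and 90.4 in immature VSNs and 4.94 and 7.05 in mature VSNs. Each of these classes lay below the one before in both libraries. Across the subclusters of immature apical VSNs *Gnao1* did not fall from low to high V1R content. It was at 39.9 and 63.3 at low, 40.0 and 71.7 at middle and 183 and 137 at high content. The range at high content overlapped that of apical-side precursors. Mature apical VSNs held less *Gnao1* than mature basal VSNs by a log2 difference of −5.96 ± 0.17 (adjusted p = 5.45e-06), a fold of 62.2. For immature VSNs the difference was −2.58 ± 0.18 (adjusted p = 5.30e-08). Even in basal VSNs the number of captured *Gnao1* molecules stayed small beside *Gnai2* in apical VSNs: the highest class mean of *Gnao1* was 475 CPM, against 3699 for *Gnai2*. *Gnao1* did not rise with maturation of basal VSNs. It was lower in mature than in immature basal VSNs by −0.41 ± 0.15 (adjusted p = 0.0496), a call that was lost with DESeq2 (adjusted p = 0.155), with cells thinned to 3000 UMIs (0.122) and without the 3 mature basal cells that held more V1R than V2R UMIs (0.0598).

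**Figure D1:**
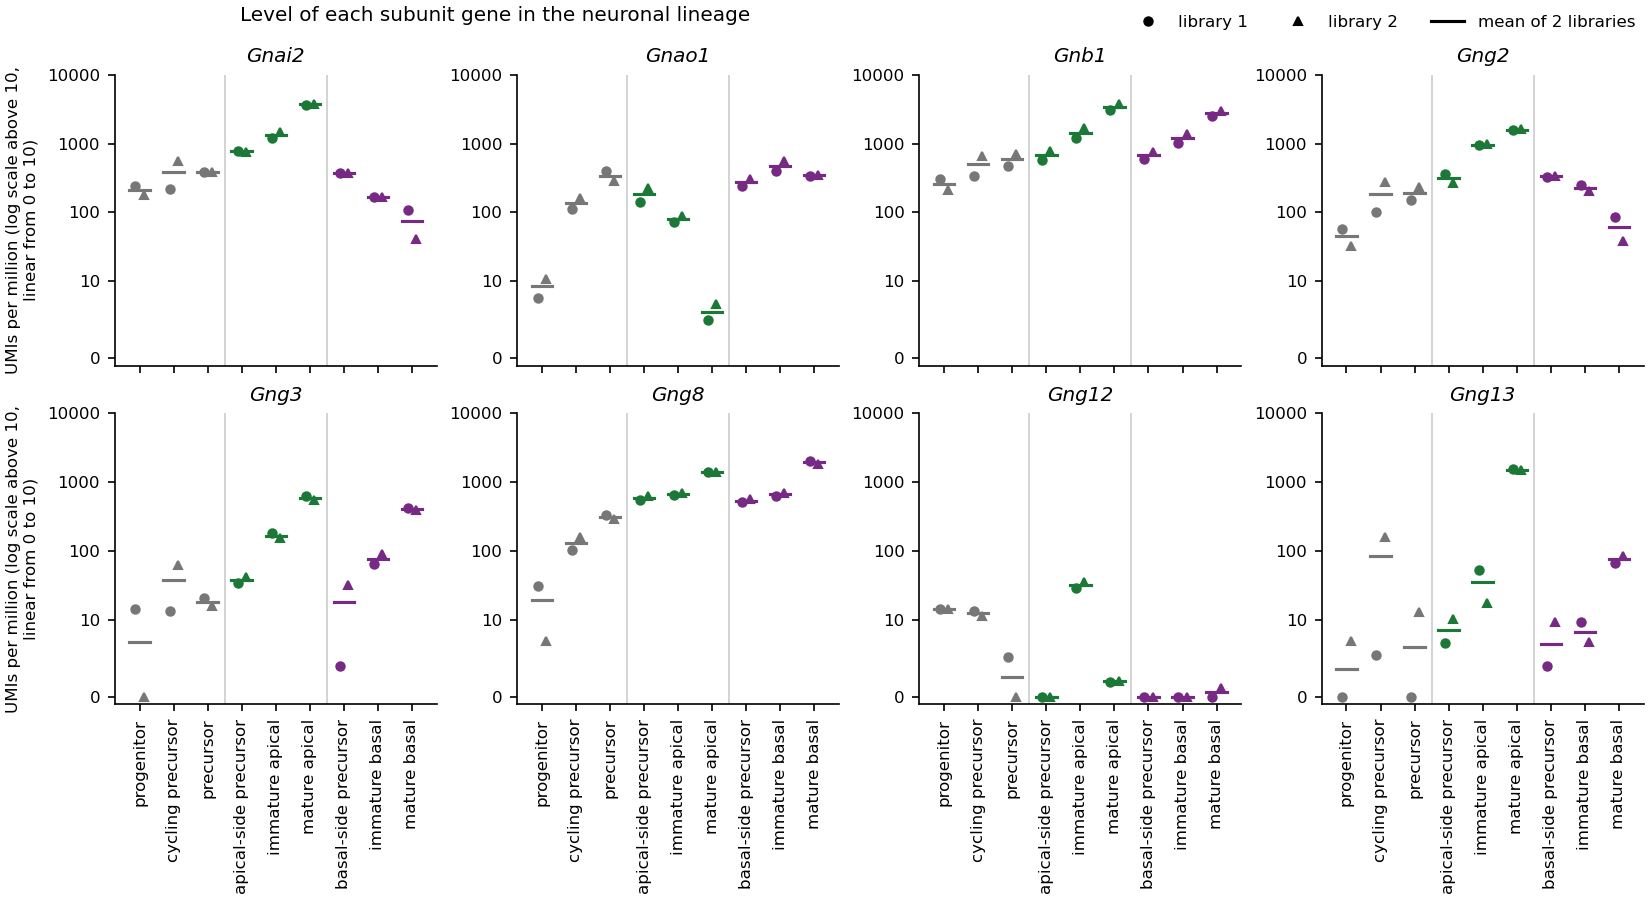
Level of each of the 8 subunit genes in the classes of the neuronal lineage, in CPM on an axis that is logarithmic above 10 and linear from 0 to 10. Circles are library 1, triangles library 2 and bars the mean of both, with shared stages in gray, the apical arm in green and the basal arm in purple. *Gnai2* climbs to a mean of 3699 along the apical arm while *Gnao1* falls to 5.99, and *Gng13* reaches 1517 only at the mature apical stage.

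The balance of the 2 alpha subunit genes differed between the stages. Of the UMIs of both genes, *Gnao1* made up 3.16% and 5.66% in progenitors, 33.6% and 22.6% in cycling precursors and 50.3% and 42.6% in precursors. A single library 2 cell held 66 of the 177 *Gnai2* UMIs of cycling precursors, and without it the library 2 share there was 47.4%. *Gnao1* made up 39.1% and 45.3% in basal-side and 15.3% and 23.3% in apical-side precursors. The genes stood near parity in precursors, and the apical-side share lay below the basal-side share in both libraries. The share of *Gnao1* was then 5.64% and 5.77% in immature apical and 0.137% and 0.186% in mature apical VSNs. It was 70.6% and 76.6% in immature basal and 75.9% and 89.5% in mature basal VSNs. Without 3 mature basal cells that held more V1R than V2R UMIs it was 95.6% and 95.3% there.

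The genes were also compared within single cells. In mature apical VSNs 593 of 594 cells held more *Gnai2* than *Gnao1* UMIs, with a median of 49.5 *Gnai2* UMIs per cell. In mature basal VSNs 102 of 108 cells held more *Gnao1*, with a median of 6 *Gnao1* UMIs per cell. Of the 80 precursors, 34 held more *Gnai2*, 34 held more *Gnao1*, 9 held equal numbers and 3 held neither. The equal counts were those of both libraries together. In library 1, 16 held more *Gnai2* and 20 more *Gnao1*, and in library 2 these numbers were 18 and 14. Of the apical-side precursors, 63 of 69 held more *Gnai2*. The median in precursors was 3 UMIs of each gene per cell, so these numbers do not show separate kinds of precursor. Basal-side precursors were not the mirror image, with more *Gnai2* in 34 and more *Gnao1* in 17 of 61 cells. By the immature stage 127 of 156 basal VSNs held more *Gnao1*, and 190 of 191 apical VSNs held more *Gnai2*.

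With all UMIs counted, cells with a UMI of both genes were most frequent in the precursor classes and least frequent, within the lineage, in mature apical VSNs. Both were found in 68.8% of precursors (exact 95% interval 57.4% to 78.7%), 75.4% of apical-side and 83.6% of basal-side precursors. The share was 40.8% (33.8% to 48.2%) in immature apical and 62.2% (54.1% to 69.8%) in immature basal VSNs. It was 5.22% (3.57% to 7.33%) in mature apical and 23.1% (15.6% to 32.2%) in mature basal VSNs. As a background, 0.415% of macrophages and 4.63% of sustentacular cells, the supporting cells of the epithelium, held both. The interval of mature apical VSNs includes the share of sustentacular cells, so nothing is read from it beyond that background. Depth differed, with a median of 8845.5 UMIs in precursors, 13507.5 in mature apical VSNs, 17199 in mature basal VSNs, 11302 in sustentacular cells and 4515 in macrophages. After each cell was thinned to 3000 UMIs, which kept 76 of 80 precursors, 189 of 191 immature apical, 153 of 156 immature basal, 592 of 594 mature apical and 107 of 108 mature basal VSNs, 274 of 281 sustentacular cells and 1121 of 1685 macrophages, both genes were found in 44.7% of precursors, 18.0% of immature apical, 30.1% of immature basal, 1.18% of mature apical and 2.80% of mature basal VSNs. The thinned shares were 0.178% in macrophages and 0.365% in sustentacular cells. At this depth the order changed, as *Gnao1* was found in 0 of 42 progenitors and in 25.7% of cycling precursors. No progenitor thus held both genes, below the share of mature apical VSNs. Cycling precursors with both were less frequent than immature basal VSNs with both. The intervals cover counting error only.

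**Figure D2:**
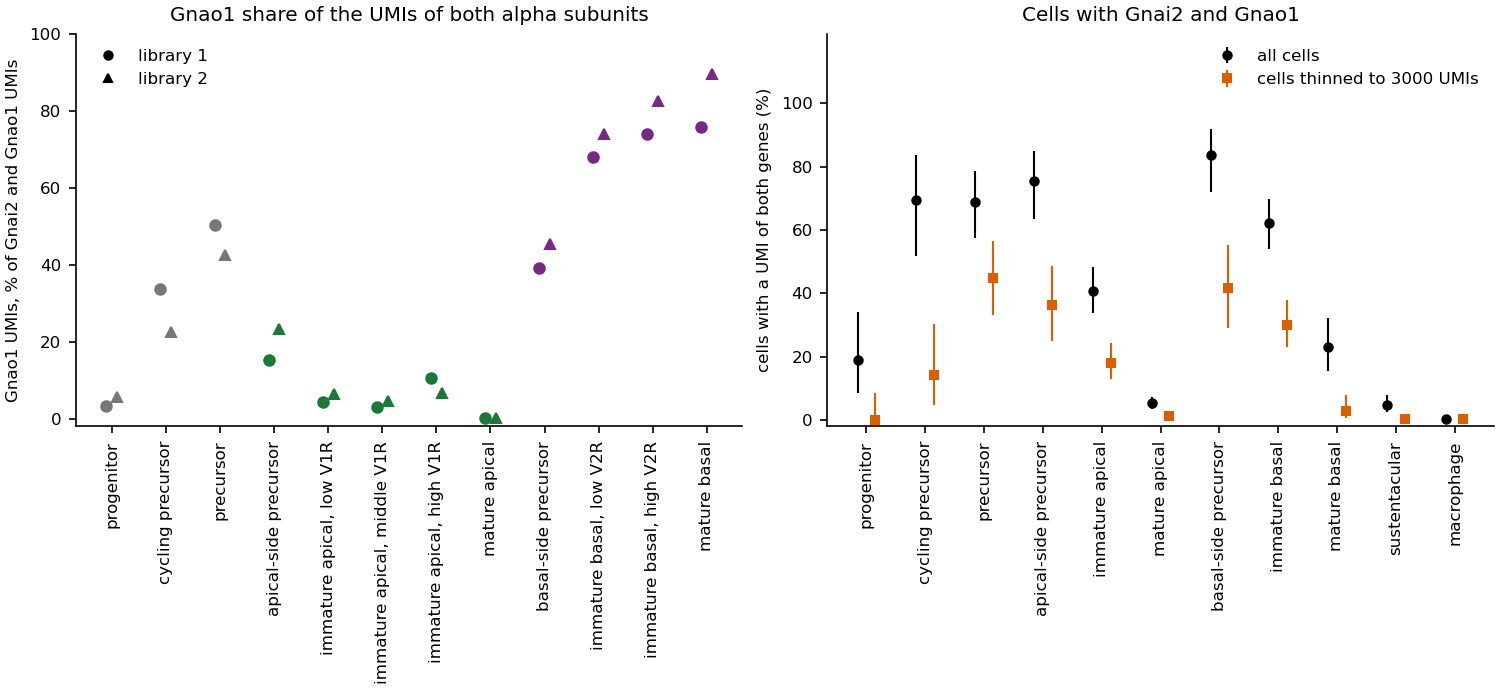
Left, the *Gnao1* share of the *Gnai2* and *Gnao1* UMIs of a class in percent, with circles for library 1 and triangles for library 2. Right, the percent of cells with a UMI of both genes, with exact 95% binomial intervals, for all cells (black circles) and for cells thinned to 3000 UMIs (orange squares). The share of cells with both stands at 68.8% in precursors and at 5.22% in mature apical VSNs, and at 44.7% and 1.18% after thinning.

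A few cells carried most of the *Gnai2* of mature basal VSNs. Of the 108 cells, 3 held more V1R than V2R UMIs, and these 3 held 110 of the 139 *Gnai2* UMIs, 75 of the 116 *Gng2* UMIs and 59 of the 139 *Gng13* UMIs. The other 105 cells had *Gnai2* at 16.0 and 17.4 CPM, *Gng2* at 29.7 and 17.4 and *Gng13* at 27.4 and 64.9. *Gnao1* in them was at 351 and 349, within the range of the whole class. In the mature apical class 11 of 594 cells held more V2R than V1R UMIs, and 45 held as many or more. With these 45 and 3 cells left out, so that each cell kept held more UMIs of the receptor family of its class, a choice made after the data had been seen, the mature apical to basal log2 difference was 7.70 ± 0.11 for *Gnai2*, 5.99 ± 0.18 for *Gng2* and 4.95 ± 0.27 for *Gng13*, with adjusted p values of 5.18e-07, 9.28e-06 and 9.54e-05. In another definition, cells of both mature classes with *Omp* and at least 5 receptor UMIs were classed by the receptor family with more UMIs. Of its 110 basal cells 7 came from the mature apical class. The 11 mature apical cells with more V2R UMIs held *Gnai2* at 3610 and 3287 CPM and *Gnao1* at 39.4 and 37.8. For the same genes the differences were then 3.83 ± 0.49, 3.76 ± 0.48 and 3.57 ± 0.29 (adjusted p = 0.00425, 0.00441 and 5.47e-04). The size of the *Gnai2* difference thus hung on a handful of cells, while its direction and call were the same under all 3 definitions. These 3 mature basal cells were deep, with 38820, 29754 and 27699 UMIs against a class median of 17199. Their V1R and V2R UMIs were 256 and 204, 428 and 5, and 339 and 99. Scrublet called none of the mature basal cells doublets, and the part of doublets in these 3 cells was not tested.

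*Gnb1*, the gene of the beta subunit Gβ1, rose with neuronal age in both types. It was at 480 and 717 CPM in precursors, 1193 and 1654 in immature apical and 1025 and 1377 in immature basal VSNs. In mature VSNs it was at 3043 and 3709 in the apical and 2493 and 3014 in the basal type. The gene was higher in library 2 in 21 of 23 classes, so that immature apical and basal levels overlapped while mature ones were close without overlap. Mature exceeded immature VSNs by 1.30 ± 0.13 on the log2 scale in the apical type (adjusted p = 1.20e-05) and by 1.24 ± 0.14 in the basal type (adjusted p = 5.98e-05). Between mature types the difference of 0.20 ± 0.11 did not pass the threshold (adjusted p = 0.312), but with the library as a block it did, at 0.20 ± 0.04 (adjusted p = 8.89e-06). Between immature types it was 0.20 ± 0.14 (adjusted p = 0.537). Of all beta subunit UMIs *Gnb1* made up 95.7% and 96.1% in mature apical and 95.1% and 96.0% in mature basal VSNs. In precursors it made up 42.0% and 55.1% and in sustentacular cells 35.0% and 38.5%, with *Gnb2* as the main other gene.

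*Gng2*, a gamma subunit gene known from brain and blood cells, followed the apical type. It was at 1588 and 1603 CPM in mature apical and 945 and 979 in immature apical VSNs. In immature basal VSNs it was at 253 and 207 and in mature basal VSNs at 86.9 and 38.2. The types did not overlap at either age. It was nearly alike in apical-side precursors, at 358 and 266, and basal-side precursors, at 333 and 336, whose ranges overlapped. Thus *Gng2*, unlike *Gnai2*, showed no separation of the branches at the precursor stage beyond the spread. The log2 difference between types was 4.57 ± 0.29 in mature VSNs (adjusted p = 1.15e-04, and 5.27 without library 1) and 2.01 ± 0.14 in immature VSNs (adjusted p = 4.95e-08). Unlike *Gnai2*, *Gng2* did not step up within the immature apical class: it was at 1049 and 1054 at low V1R content and at 876 and 957 at high content. With maturation it rose by 0.78 ± 0.08 in the apical type (adjusted p = 2.70e-05) and fell by 1.84 on the log2 scale in the basal type (SE 0.30, adjusted p = 8.05e-04).

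*Gng13*, whose product is known as the gamma partner of gustducin in taste cells and is also found in olfactory neurons, was a gene of the mature apical stage. It was at 1547 and 1486 CPM in mature apical VSNs. In immature apical VSNs it was at 52.3 and 17.5, and in mature basal VSNs at 67.8 and 84.3. Both were far below the mature apical level in each library, and their own ranges did not overlap. Without the 3 mature basal cells that held more V1R than V2R UMIs, *Gng13* was at 27.4 and 64.9 in mature basal VSNs, and these ranges overlapped. In immature basal VSNs it was at 9.76 and 7.15, in precursors at 0 and 12.9. The log2 rise from immature to mature apical VSNs was 5.40 ± 0.27 (adjusted p = 8.39e-08, and 6.40 without library 1), the largest of the 8 genes in that comparison. Mature apical exceeded mature basal VSNs by 4.23 ± 0.12 (adjusted p = 5.35e-06). Within the immature apical class its level was higher at high V1R content in library 1, at 147, but not in library 2, at 22.8, against 26.0 and 20.5 at middle content. The immature difference between types, 2.02 ± 0.52 (adjusted p = 0.0240, and 1.23 without library 1), rested on 63 and 12 UMIs, and was lost with DESeq2 (adjusted p = 0.204) and with thinned cells (0.483). *Gng13* was found in 590 of 594 mature apical VSNs (99.3%), in 27.8% of mature basal VSNs, in 13.5% of sustentacular cells and in 6.17% of macrophages. With cells thinned to 3000 UMIs these shares were 95.4%, 11.2%, 3.65% and 3.66%.

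*Gng8*, a gamma subunit gene known from developing and mature chemosensory neurons, was the main gamma gene of the basal type and present from the precursors on. It was at 2027 and 1828 CPM in mature basal and 1405 and 1373 in mature apical VSNs. It was at 630 and 697 in immature basal and 649 and 700 in immature apical VSNs. The immature ranges overlapped, whereas the mature ones did not. It was at 331 and 291 in precursors, 552 and 636 in apical-side and 507 and 562 in basal-side precursors, and at most at 161 in either library of cycling precursors. Mature apical VSNs held less than mature basal VSNs by a log2 difference of −0.56 ± 0.09 (adjusted p = 0.00832). Between immature types the difference was −0.02 ± 0.12 (adjusted p = 0.967). With maturation *Gng8* rose by 1.10 ± 0.09 in the apical (adjusted p = 3.28e-06) and by 1.57 ± 0.11 in the basal type (adjusted p = 1.82e-06). Part of the rise lay within the immature stage of both types, with 326 and 427 at low and 1020 and 1254 at high V2R content, and with 614 and 530 at low and 965 and 961 at high V1R content.

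*Gng3*, a gamma subunit gene known from neurons, marked maturity in both types. It was at 617 and 555 CPM in mature apical and 422 and 389 in mature basal VSNs, with no overlap. In immature VSNs it was at 182 and 153 in the apical and 64.7 and 89.4 in the basal type, and in precursors at 20.5 and 16.1. The step in level between precursor and mature VSNs was seen in both libraries of both types. The rise with maturation was 1.85 ± 0.13 on the log2 scale in the apical (adjusted p = 1.17e-06) and 2.45 ± 0.17 in the basal type (adjusted p = 1.55e-06). The apical level was above the basal level by 0.44 ± 0.10 in mature VSNs (adjusted p = 0.0428) and by 1.11 ± 0.20 in immature VSNs (adjusted p = 0.00193). With thinned cells neither passed, at adjusted p values of 0.221 and 0.106.

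*Gng12*, a gamma subunit gene expressed widely outside neurons, was unlike the other members. It was at 28.7 and 35.0 CPM in immature apical VSNs, from 52 UMIs, and at 1.93 and 2.06 in mature apical VSNs. No UMI was found among 1378713 UMIs of immature basal VSNs, nor in apical-side or basal-side precursors. With a floor of 3 counts over the class, the immature apical level was at least 14.4-fold higher than in immature basal VSNs, at least 6.02-fold higher than in apical-side and at least 5.86-fold higher than in basal-side precursors. Progenitors held it at 14.1 and 14.5 and precursors at 5.13 and 0. Of the neurons the immature apical class thus stood out, and 46 of its 52 UMIs lay in the subcluster of middle V1R content, where it was at 53.9 and 64.9. The highest cell held 3 of the 52 UMIs, and 36 of 191 cells (18.8%) had a UMI, against 11 of 594 mature apical VSNs (1.85%). The test gave a difference between immature types (adjusted p = 7.81e-05) and a fall from immature to mature apical VSNs by 3.90 on the log2 scale (SE 0.35, adjusted p = 6.53e-06). The mature types differed by 16 against 1 UMI, a ratio of 3.64 (exact 95% interval 0.565 to 153), and this did not pass the threshold (adjusted p = 0.450).

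Each comparison was made over all genes, so the members can be read against the share of all genes that passed in it. Of the 8 members, 4 were higher in mature apical than in mature basal VSNs, where 4.03% of 12693 genes were higher. Lower were 2 members, *Gnao1* and *Gng8*, where 5.63% of genes were lower. *Gnb1* and *Gng12* did not pass. In immature VSNs 5 members were higher in the apical type, against 3.46% of 10595 genes, and 1, *Gnao1*, was lower, against 3.84%. *Gnb1* and *Gng8* did not pass there. The median log2 difference of the members was 1.07 in mature and 1.56 in immature VSNs, with 0.05 and 0.01 for all genes, and the second is the same with *Gng12* at its bound. Marker lists of other cell types also differed in both comparisons. The fixed list of non-sensory epithelial markers summed to 198 and 248 CPM in mature apical and 2153 and 2271 in mature basal VSNs, and to 725 and 662 in immature apical and 2246 and 2072 in immature basal VSNs. All 5 listed genes were found in each class, and *Krt8* and *Krt18* carried the sums, while *Krt19*, which defines those cells, was at most at 15.6 in any of these classes. Olfactory neuron markers summed to 509 and 563 in mature apical and 72.1 and 75.3 in mature basal VSNs, and to 71.8 and 61.2 in immature apical and 29.3 and 16.1 in immature basal VSNs. *Rtp1* carried the mature apical sum, at 443 and 499, while *Cnga2*, the channel gene that defines olfactory neurons, was at 0 in all 4 classes. Gland markers summed to 695 and 634 in immature apical, 1809 and 940 in immature basal, 672 and 423 in mature apical and 480 and 357 in mature basal VSNs, with *Obp2a* the main gene. The part of such cells in the members' differences was not tested.

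In the apical type 6 members rose and 2, *Gnao1* and *Gng12*, fell, where 21.4% and 17.1% of 12780 genes did. *Gnai2* rose by 1.51 ± 0.09 on the log2 scale (adjusted p = 3.22e-07) and *Gnao1* fell by 3.72 (SE 0.24, adjusted p = 5.46e-07). In the basal type 4 of 7 members tested rose, *Gng13*, *Gng3*, *Gng8* and *Gnb1*, where 18.8% of 10844 genes did. The other 3, *Gng2*, *Gnai2* and *Gnao1*, the last by the call that was lost under the 3 alternatives given above, fell, where 16.1% of genes did, and *Gng12* had too few UMIs to be tested. *Gng13* rose there by 3.14 ± 0.32 (adjusted p = 3.06e-05), and by 2.41 ± 0.50 in the cells with more UMIs of the receptor family of their class (adjusted p = 0.00514). *Gnai2* fell by 1.12 on the log2 scale (SE 0.33, adjusted p = 0.0230), by 1.98 without library 1, and by 3.29 in those cells (adjusted p = 6.38e-06). DESeq2 did not call this fall (adjusted p = 0.271). *Gng2* fell by 3.26 in the same cells (adjusted p = 1.70e-05). The comparisons share samples, the mature and immature sums being used against each other and between types, so they are not independent of one another.

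From precursors to immature VSNs of both types summed, 7 members were higher, where 15.3% of 11280 genes were. The 8th, *Gnao1*, was at −0.30 ± 0.18 (adjusted p = 0.210), and with the library as a block it passed as lower, at −0.32 ± 0.13 (adjusted p = 0.0428), beside 11.4% of all genes that were lower without the block. Without library 1 it was at 0.13 and without library 2 at −0.78, so the direction of this summed value hung on the library. The rises of the sum were 2.88 ± 0.31 for *Gng3* (adjusted p = 1.12e-08), 1.85 ± 0.17 for *Gng2* (2.69e-10), 1.28 ± 0.15 for *Gnb1* (8.65e-08), 1.22 ± 0.15 for *Gng8* (1.34e-07) and 1.18 ± 0.14 for *Gnai2* (1.27e-07). Both alpha genes parted by type under this sum. *Gnai2*, at 392 and 387 CPM in precursors, was at 1217 and 1476 in immature apical but 166 and 168 in immature basal VSNs. For *Gnao1*, at 398 and 287 in precursors, these levels were 72.8 and 90.4 in the apical and 399 and 551 in the basal type. No *Gng12* UMI was found in immature basal VSNs. *Gng12*, with 52 against 2 UMIs and a ratio of 5.98 (1.58 to 50.7), and *Gng13*, with 0 and 4 precursor UMIs in the libraries, passed at adjusted p values of 0.00935 and 0.0231. Both were lost with DESeq2 (0.191 and 0.260) and with thinned cells (0.286 and 0.662). Without library 1 the log2 value of *Gng13* was 0.07. Summed V1R genes were at 35.9 CPM in precursors of library 1 and 320 in those of library 2. A single library 2 precursor of 14633 UMIs held 54 V1R UMIs and 2 of the 4 *Gng13* UMIs of precursors. The part of such cells was not tested.

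**Figure D3:**
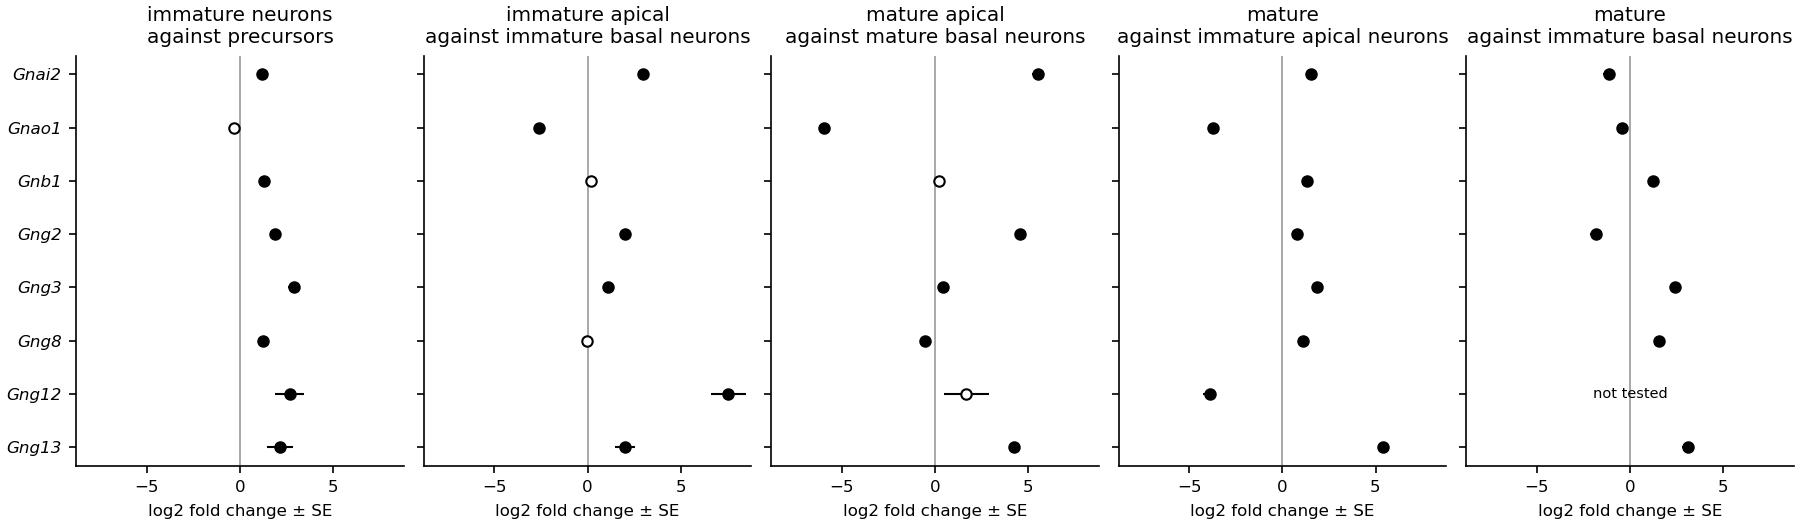
Log2 fold change of each member with its standard error in 5 comparisons, from the edgeR fit on sums of 2 libraries a class. Filled points passed the threshold of 0.05 on the adjusted p and open points did not. *Gnai2* and *Gnao1* lie on opposite sides of 0 between the types, at 5.52 and −5.96 in mature VSNs, and *Gng12* was not tested between mature and immature basal VSNs. The *Gng12* value between immature types is against 0 UMIs and depends on the fit.

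The apical to basal difference itself grew with maturation for 3 members. In the fit of the 4 classes together, the log2 difference was larger in mature than in immature VSNs by 2.59 ± 0.36 for *Gnai2* (adjusted p = 0.00414) and by 2.59 ± 0.32 for *Gng2* (adjusted p = 0.00201), where 0.649% of 13399 genes passed in this direction. For *Gnao1* it moved toward the basal type, by −3.35 ± 0.26 (adjusted p = 7.47e-05), where 0.664% of genes did. The remaining 5 did not pass, with adjusted p values of 0.109 for *Gng8*, 0.184 for *Gng13*, 0.229 for *Gng3*, 0.289 for *Gng12* and 1.00 for *Gnb1*. With the library as a block *Gng8*, at −0.52 ± 0.10, *Gng13*, at 2.20 ± 0.54, and *Gng3*, at −0.65 ± 0.18, passed as well (adjusted p = 0.00111, 0.00891 and 0.0264). Without library 1 the *Gnai2* value was 3.33. In the cells with more UMIs of the receptor family of their class it was 4.81 for *Gnai2*, 4.06 for *Gng2* and −3.51 for *Gnao1*, and all 3 passed.

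Among the named classes outside the neuronal lineage, *Gnai2* was at 1099 and 1077 CPM in endothelial cells, 1046 and 939 in neutrophils, 926 and 926 in monocytes and 734 and 731 in macrophages. None of these classes overlapped its neighbor in the order of the 23 classes. *Gnao1* was at 27.0 and 30.8 in fibroblasts, the highest non-neuronal class, and at 0.535 and 1.36 in macrophages. It was not found in 279244 UMIs of ciliated cells, where 3 counts would be 10.7 CPM. *Gnb1* lay between 98.7 and 375 in every library of the non-neuronal classes. *Gng2* was at 238 and 143 in NK cells, 194 and 144 in T cells and 158 and 150 in macrophages, and at most at 12.8 in gland cells, basal epithelial cells, non-sensory epithelium and ciliated cells. NK cells, T cells and macrophages thus lay above these epithelia in both libraries. *Gng8* stayed at or below 59.0 and *Gng3* at or below 16.9 in non-neuronal libraries. *Gng12* was the reverse of both, at 113 and 87.8 in neutrophils, 93.2 and 94.9 in fibroblasts, 87.9 and 73.7 in ensheathing and 76.7 and 74.2 in endothelial cells, above every class of the neuronal lineage. In the order of classes, neighbors overlapped in 7 of 22 pairs for *Gnai2* and in 20 of 22 for *Gng13*, with the other genes between.

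**Figure D4:**
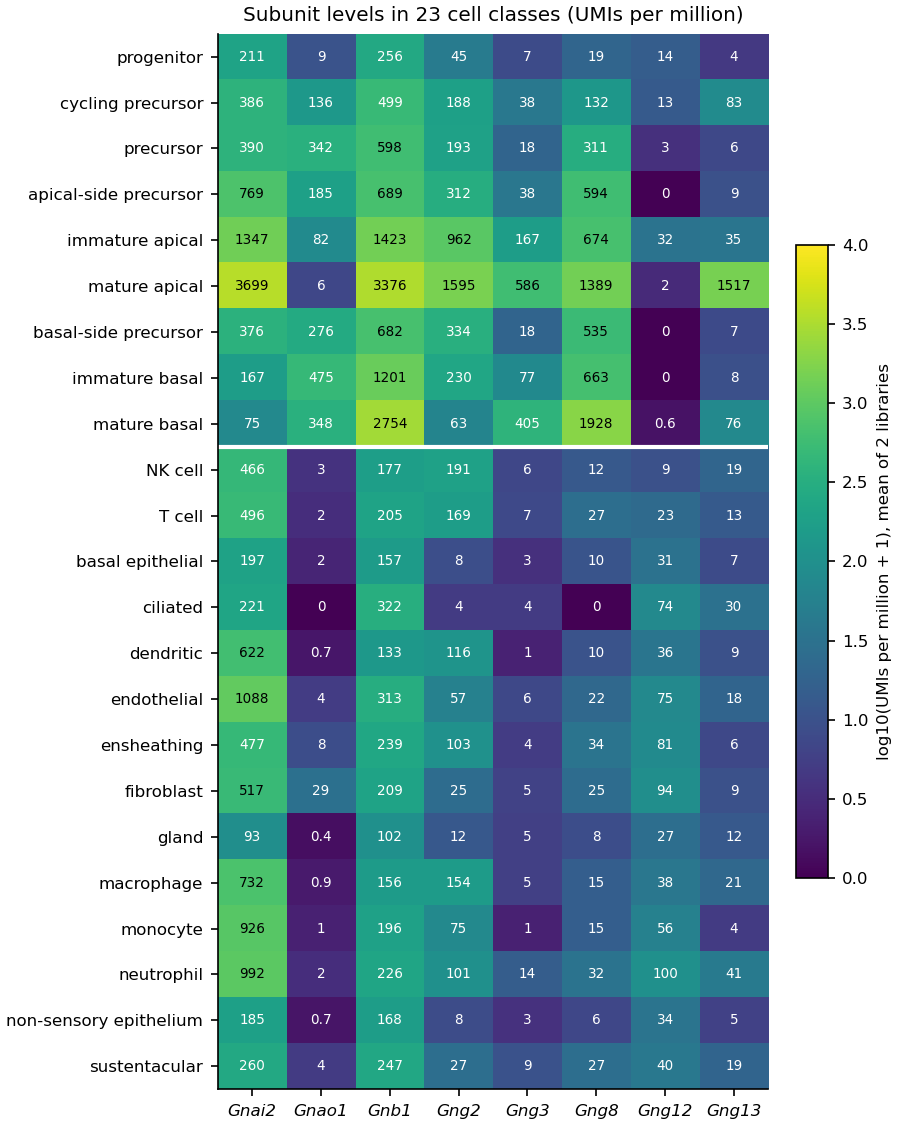
Mean level over 2 libraries of each member in the 23 named classes, printed in CPM and colored by log10 of the level plus 1. The white line parts the neuronal lineage (above) from other cells (below). *Gnai2* is at 1088 in endothelial cells and 75 in mature basal VSNs, and *Gng12* is at 0 in 3 classes of the lineage and at 100 in neutrophils.

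Mature VSNs of both types summed, of which 594 of 702 cells are apical, were compared with sustentacular cells and with leukocytes. The leukocyte sum held macrophages, monocytes, neutrophils, dendritic, T and NK cells, and macrophages gave the most UMIs. It held no B cells, as no cluster was named so. Against sustentacular cells 7 members were higher and *Gng12* was lower, where 31% and 29% of 14112 genes were. *Gng13* (5.94 ± 0.17 on the log2 scale, adjusted p = 2.68e-06), *Gng3* (5.74 ± 0.18, 2.81e-06), *Gng8* (5.65 ± 0.12, 2.29e-06) and *Gng2* (5.48 ± 0.13, 2.29e-06) differed most. *Gnao1* (3.99 ± 0.29, 6.01e-05), *Gnb1* (3.58 ± 0.12, 3.28e-06) and *Gnai2* (3.40 ± 0.09, 2.40e-06) followed, and *Gng12* was at −4.63 ± 0.27 (2.37e-05). Against leukocytes the same 7 members were higher and *Gng12* was lower, where 36% and 37.9% of 15301 genes were. The smallest rise there was that of *Gnai2*, at 1.47 ± 0.10 (adjusted p = 5.74e-06). *Gng2* was at 2.62 ± 0.12 (4.66e-07), *Gnb1* at 3.72 ± 0.13 (1.14e-07), *Gnao1* at 5.23 ± 0.23 (3.60e-07), *Gng13* at 5.41 ± 0.18 (1.02e-07), *Gng8* at 5.93 ± 0.13 (5.99e-08), *Gng3* at 6.20 ± 0.19 (8.39e-08) and *Gng12* at −5.20 ± 0.20 (1.73e-07). The sum hides the basal type for *Gnai2*, whose mature basal level of 108 and 41.6 lay below that of every leukocyte class. The sustentacular markers summed to at most 25.8 CPM in mature VSNs and to 1985 and 1956 in sustentacular cells.

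Measured as shares of their kind, the subunits gave each neuron type its own make-up. Of the UMIs of 16 alpha subunit genes, *Gnai2* made up 82.6% and 83.7% in mature apical VSNs, with *Gnas*, the gene of the stimulatory Gαs, at 14.4% and 13.2%. In mature basal VSNs *Gnao1* made up only 29.0% and 33.5%, and *Gnas* made up 51.8% and 51.7%. Unlike in the apical type, the gene of the known alpha subunit did not hold the largest part of these UMIs. Of the UMIs of 12 gamma subunit genes, mature apical VSNs divided theirs over *Gng2* (29.6% as the mean of both libraries), *Gng13* (28.4% and 27.8%), *Gng8* (25.8% and 25.7%) and *Gng3* (11.3% and 10.4%). Mature basal VSNs had *Gng8* at 69.9% and 68.6%, *Gng3* at 14.5% and 14.6% and *Gng10*, which is no member, at 6.36% and 5.95%. The apical pool was thus spread over 3 genes and the basal pool rested mainly on 1. In immature apical VSNs *Gng2* led, at 44.0% and 44.4%, ahead of *Gng8* at 30.2% and 31.7%. *Gng5*, which is no member, led in sustentacular cells at 83.7% and 84.7% and in macrophages at 50.5% and 50.6%.

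**Figure D5:**
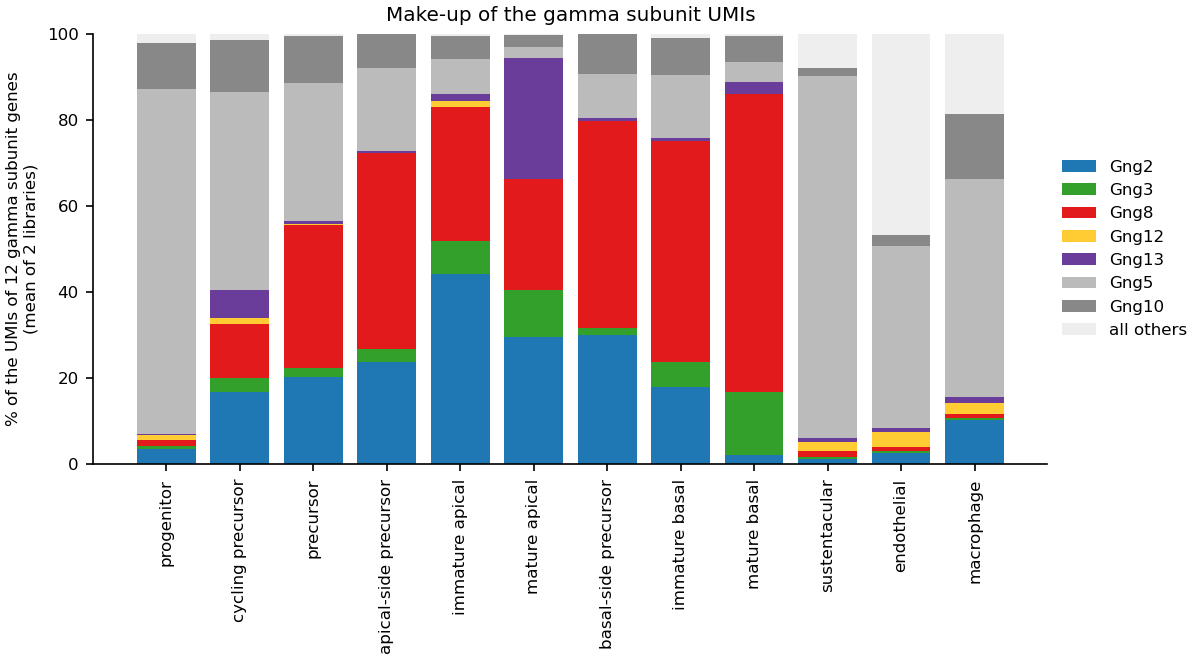
Make-up of the UMIs of 12 gamma subunit genes in each class, in percent, as the mean of 2 libraries. Colored segments are members, gray segments *Gng5*, *Gng10* and all other gamma genes. *Gng8* alone fills 69.3% of the mature basal bar, whereas *Gng2*, *Gng13* and *Gng8* fill 29.6%, 28.1% and 25.8% of the mature apical bar.

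Other genes of the pathway are read beside the 4.03% of all genes that were higher and the 5.63% that were lower in mature apical VSNs. Of 14 other alpha subunit genes 7 were tested between mature types and none passed, nor did any of the 3 other beta or 5 other gamma genes tested. Among 27 regulators of G proteins 18 were tested and 1 passed, *Rgs3*, a GTPase activator, higher in mature apical VSNs by 2.95 ± 0.34 on the log2 scale (adjusted p = 0.00254). Of the effector genes 13 were tested and none passed. Between immature types, where 3.46% of all genes were higher and 3.84% lower, no other subunit gene passed of 8 alpha, 2 beta and 3 gamma genes tested, and no regulator of 13. Of 10 effectors *Calm2*, a calmodulin gene, was lower in the apical type (−0.78 ± 0.13, adjusted p = 8.40e-04) and *Kcnj3*, a channel gated by beta-gamma, was higher, with 15 UMIs against 0 (adjusted p = 0.0258). The median log2 difference of the 7 other alpha genes between mature types was 0.10, beside 0.05 over all genes.

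The same lists were then followed with maturation. In the apical type, where 21.4% of all genes rose and 17.1% fell, 6 of 8 other alpha genes tested were lower and none higher, with *Gnas* at −1.78 ± 0.10 (adjusted p = 1.88e-07), *Gnai3*, a near relative of *Gnai2*, at −1.44 ± 0.27 (0.00148) and *Gnaq* at −0.88 ± 0.24 (0.0138). In the basal type, where 18.8% rose and 16.1% fell, 5 of 7 were lower and none higher, with *Gnas* at −1.81 ± 0.12 (adjusted p = 1.25e-06). The medians of these lists were −1.24 and −1.16, beside 0.10 and 0.01 over all genes. *Gnb2* fell by 1.69 on the log2 scale in the apical and by 2.41 in the basal type (adjusted p = 1.79e-06 and 9.84e-07), while *Gnb5*, whose product pairs with a class of Rgs proteins, rose by 1.20 ± 0.23 and 2.04 ± 0.30 (0.00152 and 3.94e-04). *Gng10* rose by 0.48 ± 0.13 and 0.63 ± 0.21 (0.0126 and 0.0355). Among 14 effectors tested in the apical type 7 rose and 1 fell, and among 12 in the basal type 7 rose and none fell. *Ano1* and *Ano2*, genes of calcium-activated chloride channels, rose by 4.67 ± 0.52 and 2.79 ± 0.26 in the apical type (3.14e-05 and 7.34e-06) and by 1.89 ± 0.36 and 1.89 ± 0.31 in the basal type (0.00222 and 7.98e-04). *Plcb2*, a phospholipase C that beta-gamma activates, rose by 3.40 ± 0.42 in the apical type (7.49e-05). The regulator *Rgs20* rose by 3.42 ± 0.18 and 4.23 ± 0.28 (1.13e-07 and 1.01e-06). *Rgs3* was lower in mature VSNs, at −0.68 ± 0.21 in the apical and −3.56 ± 0.37 in the basal type (0.0217 and 2.96e-05). Among the regulators as a list 3 rose and 3 fell of 18 in the apical type, and 1 rose and 3 fell of 13 in the basal type. *Trpc2* was not analysed here.

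The lists are given beside the share of all genes in each remaining comparison. From precursors to immature VSNs, where 15.3% of all genes were higher and 11.4% lower, *Gnas* rose by 0.74 ± 0.12 (adjusted p = 2.64e-05), 1 of 8 other alpha genes tested, and *Gnb2* and *Gng5* fell by 0.62 and 0.60 on the log2 scale (0.00173 and 0.00551), 1 of 2 other beta and 1 of 3 other gamma genes. Of 14 regulators 1 rose and 5 fell, with *Rgs20* among the fallen (−2.25 ± 0.33, 2.90e-06). Of 12 effectors 5 rose and 2 fell, all 3 calmodulin genes among the risen. Against leukocytes, where 36% of all genes were higher and 37.9% lower, 9 of 11 other alpha, 3 of 4 other beta and 4 of 6 other gamma genes were lower in mature VSNs, with *Gna15*, known from blood cells, at −7.61 ± 0.26 (1.21e-07). Of 22 regulators tested there 9 were higher and 11 lower, and of 19 effectors 8 were higher and 6 lower. Against sustentacular cells, where 31% of all genes were higher and 29% lower, 5 of 7 other alpha genes were lower and 2 higher, 1 of 3 other beta genes was lower and 1 higher, and 3 of 6 other gamma genes were lower and 2 higher. Of 22 regulators 7 were higher and 7 lower, and of 17 effectors 8 were higher and 4 lower. In the change of the type difference with maturation, where 0.649% of all genes were higher and 0.664% lower, none of 8 other alpha, 3 beta and 6 gamma genes passed, 1 of 18 regulators did (*Rgs3*, 2.87 ± 0.43, adjusted p = 0.00622) and 1 of 14 effectors did (*Calm2*, 1.09 ± 0.21, 0.0309).

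For each member the genes with the most similar pattern were found from Pearson's correlation of log2(CPM + 1) over the means of the 23 classes, among 14682 genes. The classes share 2 libraries and their depth, and the values are a description. *Gnao1* was most like *Robo2* (r = 0.946), an axon guidance receptor and one of the markers fixed for basal VSNs. *Gng13* was most like *Omp* (0.864), the olfactory marker protein gene of mature sensory neurons. *Gng3* was most like *Chga* (0.975), *Gng8* like *Stmn4* (0.968), *Gnb1* like *Acbd7* (0.969), *Gng12* like *Hsd17b11* (0.902) and *Gng2* like *Setdb2* (0.854). *Gnai2* had the weakest likeness, with the receptor gene *Vmn1r50* at 0.706. Among the members themselves *Gnb1* and *Gng3* were nearest (0.949), *Gnai2* and *Gnao1* were at −0.104, and *Gng12* was at a negative value with every other member but *Gnai2* (0.148).

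Cells with tuft markers, which are known for taste-type signaling, held *Gng13* too. In 5 cells with at least 3 of the 6 tuft markers, of which 3 lay in unnamed clusters, 1 among ciliated cells and 1 among macrophages, *Gng13* was at 3495 and 2327 CPM, beside *Gnat3* at 2396 and 1420 and *Gnb3* at 1832 and 1061, with *Gnai2* at 507 and 479, *Gnb1* at 169 and 205 and *Gnao1* at 0. This gate was set after the data had been seen.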

How the data were processed

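Per the labels and the study's methods, the authors prepared 10x Genomics 3′ libraries from 2 samples of dissociated VNO cells, aligned the reads to mm10 with Cell Ranger 4 and merged the libraries. The deposited values are raw UMI counts per gene and cell, and no source used here gives a depth setting of the merge. Library totals were 108005626 UMIs in library 1 and 95442231 in library 2, which limit the precision of low genes, and exact 95% intervals and floors of 3 counts cover counting error only.

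Cells with 200 to 9000 genes and up to 5% mitochondrial UMIs were kept (5694 and 4898 cells). Scrublet in scanpy 1.11.5 called 68 (1.19%) and 104 (2.12%) of them doublets. These were kept, and an alternative left them out. Cells were clustered in Seurat 5.3.0 on 2000 variable genes without the 33 G protein genes. Clusters were named from fixed markers where 3 markers passed a fold of 4 (2 for branches), folds chosen after the clusters were seen. UMIs were summed per library and class and tested with edgeR 4.0.16 (TMM, quasi-likelihood F test, genes with at least 10 UMIs, Benjamini-Hochberg adjustment, threshold 0.05, R 4.3.3). The standard error is the log2 fold change over the square root of F. On simulated counts the test found the changed genes, but its false calls exceeded the threshold share when each gene had its own spread.

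The members and lists were chosen with earlier results of these data known. The rule for named genes gave all 8 members in every comparison, up to 6 genes past the threshold by smallest p of each list, and for each member the 3 genes of highest correlation. A library number marks 1 capture and so pairs the classes. Deviations of same-numbered sums correlated at 0.0238 to 0.0897, and a block for it was an alternative. Counts of the libraries were further apart than sampling noise allows (chi-square per degree of freedom 1.58 to 4.92). Other alternatives were DESeq2 1.42.0, other count filters, 1 library left out, a 10% mitochondrial limit, thinned cells, and other class definitions. Whether the libraries hold separate mice is not stated, so p values measure only the spread between libraries.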

Additional observations from a re-analysis of the deposited data

Results flagged for a closer look

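The apical to basal difference changed with maturation for 3 members by a test of the change itself (edgeR's quasi-likelihood test over the 4 classes, 2 libraries a class). On the log2 scale it grew by 2.59 for *Gnai2* (adjusted p = 0.00414) and by 2.59 for *Gng2* (adjusted p = 0.00201), and for *Gnao1* it was −3.35, further toward the basal type (adjusted p = 7.47e-05). Each had the same sign without either library, and the 4 classes share their libraries.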

How the results depend on the processing

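Over the members' results, 594 of 673 alternative values stayed the same. For tested values this means the same side of the threshold, and the same direction where either fit passed. With 1 library left out it means a move of at most the standard error of the main fit. A further 56 moved by more than that standard error, 14 lost the threshold and 9 passed it anew. All 106 called values kept their sign without either library. Such fits have 1 library a class and no test. With the library as a block the change of the type difference with maturation passed for 6 members in place of 3, *Gnb1* passed between mature types and *Gnao1* between precursors and immature VSNs, and the block changed no other member's call. *Gnb1* also passed between mature types with no filter on low counts. The share of cells with both *Gnai2* and *Gnao1* fell when at least 2 UMIs of each were asked for, to 0% in progenitors, 33.3% in cycling precursors, 53.8% in precursors, 42.0% in apical-side and 54.1% in basal-side precursors, 17.8% in immature apical, 28.2% in immature basal, 1.18% in mature apical and 7.41% in mature basal VSNs, 0% in macrophages and 0.356% in sustentacular cells. With thinned cells the shares were 0%, 14.3%, 44.7%, 36.2%, 41.7%, 18.0%, 30.1%, 1.18% and 2.80% in the same order of lineage classes, and 0.365% in sustentacular cells. Thinning removes UMIs, and for the other changes the cause was not tested. Counts over all genes moved by more than 1.5 times in several settings. Between mature types 1226 genes passed, 2180 with no filter, 2715 with the block and 249 with thinned cells. Between immature types 774 passed, 286 with DESeq2, 1305 with the block, 378 with thinned cells and 373 with classes drawn by Meis2 and Tfap2e. With thinned cells 2691 passed in place of 4924 for apical maturation, 1446 in place of 3785 for basal maturation, 1489 in place of 3017 from precursors to immature VSNs and 5261 in place of 8457 against sustentacular cells. DESeq2 gave 1831 for basal maturation and 1339 from precursors. For the change of the type difference 176 passed, 530 with no filter, 640 with the block and 42 with thinned cells. *Gng12*, with 1 UMI in mature basal VSNs, and *Gng13* in precursors were limited by depth.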

Other observations

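Cycling precursors held *Gng13* at 5.44 and 161 CPM, on which each class total is 1000000 UMIs. Of the 30 UMIs, 28 lay in 1 cell of library 2 with 29380 UMIs, 14 UMIs of *Omp* and none of the V1R or V2R genes. In 12 mature apical VSNs with at least 2 UMIs of formyl peptide receptor genes *Gnao1* was at 53.2 and 28.0, from 7 of the 47 *Gnao1* UMIs of the class, and *Gnai2* was at 2754 and 2847. In mature basal VSNs with at least 2 UMIs of H2-Mv genes *Gnao1* was at 332 and 394, and in those with none it was at 355 and 326, so the ranges overlapped.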
